A study of Mus musculus with 4 samples.

Results

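The 5 secretory-pathway genes, Jchain, Mzb1, Xbp1, Txndc5 and Slpi, were followed cell by cell in haematopoietic stem cells (HSC) of mouse bone marrow. They were chosen by their measured values in these same libraries, as transcripts that a plasma-cell-like profile shares, and are 5 of 24411 gene rows. Each was read in the 188 barcodes with at least 1000 detected genes, called kept cells here. The study compared HSC of 2 genotypes, labelled Mat KO and WT, and its title concerns small nucleolar RNAs of the imprinted Dlk1-Gtl2 locus in stem cell self-renewal. Each genotype had 2 libraries, of which Mat KO replicate 1 had 44 kept cells and the other 3 libraries had 48 each. Cells were sorted by flow cytometry, picked singly and read with a modified STRT-seq method, in which the primer on the poly(A) tail tags every cDNA with its cell and with a unique molecular identifier (UMI). The labels give neither the deleted part of the locus, the sort gate, nor the strain, age or number of the mice. A p-value here reflects no more than library-to-library spread, part of which may be technical.

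Plasma cells are the antibody-secreting end stage of the B lineage and live for long periods in bone marrow. They expand the endoplasmic reticulum (ER) under the transcription factor Xbp1, which the ER stress sensor IRE1 activates by splicing its messenger RNA. Jchain encodes the joining chain that links IgM and IgA units into polymers. Mzb1 encodes an ER co-chaperone of the B lineage that works with Grp94, Txndc5 encodes a protein disulfide isomerase, and Slpi encodes a secreted inhibitor of neutrophil serine proteases that myeloid and epithelial cells also make. Stem cells are known for a low rate of protein synthesis.

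In GRCm38.p6 (RefSeq) Jchain spans chromosome 5, 88519809 to 88527897 on the minus strand. Xbp1 spans chromosome 11, 5520641 to 5525993, plus, Txndc5 chromosome 13, 38500266 to 38528824, minus, and Slpi chromosome 2, 164354070 to 164356507, minus. These 4 genes are protein-coding. The RefSeq table of start sites held windows for Jchain, Xbp1, Slpi and, with 3 starts, Txndc5. The 250 bases before the start are printed for these 4 because Xbp1 is itself one of the genes and acts on promoters of secretory genes. Each is given 5′ to 3′ on the gene's own strand, with ACGT, the core of the unfolded protein response element, and CCACG, a part of the ER stress response element, in capitals on either strand.
Jchain, chr5:88527898-88528147, minus strand: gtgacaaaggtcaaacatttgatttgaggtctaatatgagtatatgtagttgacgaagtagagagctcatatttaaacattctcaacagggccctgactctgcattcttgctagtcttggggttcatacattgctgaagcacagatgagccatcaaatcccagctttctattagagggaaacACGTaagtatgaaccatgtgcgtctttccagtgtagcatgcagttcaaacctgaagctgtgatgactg
Xbp1, chr11:5520391-5520640, plus strand: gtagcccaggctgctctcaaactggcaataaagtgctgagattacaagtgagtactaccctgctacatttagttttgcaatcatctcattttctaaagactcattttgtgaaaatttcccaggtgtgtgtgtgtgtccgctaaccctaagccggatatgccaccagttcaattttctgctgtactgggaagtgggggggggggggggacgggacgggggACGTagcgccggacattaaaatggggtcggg
Txndc5, the third listed start, chr13:38527915-38528164, minus strand: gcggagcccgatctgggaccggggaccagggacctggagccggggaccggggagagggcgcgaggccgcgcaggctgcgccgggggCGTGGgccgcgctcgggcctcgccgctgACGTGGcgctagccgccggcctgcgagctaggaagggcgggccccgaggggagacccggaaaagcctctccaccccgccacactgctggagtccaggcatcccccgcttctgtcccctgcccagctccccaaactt
Slpi, chr2:164356508-164356757, minus strand: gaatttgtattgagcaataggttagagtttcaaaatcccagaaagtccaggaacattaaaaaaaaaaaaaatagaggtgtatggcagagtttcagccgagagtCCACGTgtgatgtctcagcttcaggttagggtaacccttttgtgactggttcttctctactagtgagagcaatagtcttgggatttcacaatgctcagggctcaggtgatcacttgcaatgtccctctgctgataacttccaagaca

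Of the 3 Txndc5 starts the third is printed because it held the longest of these elements, which was known when it was chosen. The first start held 1 ACGT and 0 CCACG, and the second held 0 ACGT and 2 CCACG. All 4 printed windows held 1 ACGT, which reads the same on both strands and occurs in 26.9% of the 32851 windows of this length in the table. The third start of Txndc5 held the longer element TGACGTGG, counted on both strands and found in 0.563% of all windows. The windows of that start and of Slpi also held CCACG, which 28.3% of windows have, and in both of them 1 copy overlapped the ACGT core to give CCACGT, a string found in 6.91% of windows. None of the 4 held the spaced element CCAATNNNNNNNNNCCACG on either strand, which 0.113% of windows have. A match is a description of letters and not a bound site. The third Txndc5 start lies across from an exon of the antisense gene Gm31834, and the sources used here do not say whether reads were counted by strand.

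The following features of the libraries bear on every value. Depth was lower for Mat KO, whose libraries held 1900319 and 1768647 UMIs against 3183279 and 3253608, and medians per cell of 33612.5 and 27845 against 53092.5 and 51437. Barcodes are reused: 44 barcode numbers were kept in all 4 libraries, and the column names of all 4 carry the same flow cell and lane. UMIs also exceed molecules, since spike-in species detected in few wells had on average 5.18 to 7.34 UMIs where detected, and 1.04 to 1.05 is what lone molecules would give. The stem cell genes of the sorted population were found in unequal numbers of the 188 cells, with Kit in 168, Hlf in 165, Procr in 85, Fgd5 in 49, Tek in 38, Slamf1 in 26 and Hoxb5 in 10. In each library the kept cell with fewest genes had 1134, 1261, 1459 and 1611 genes, and the richest left-out barcode had 769, 57, 89 and 75.

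Jchain set WT replicate 2 apart from the other libraries. Mat KO replicates 1 and 2 held 220 and 19 of its UMIs, and WT replicates 1 and 2 held 101 and 9019. Per 1000000 UMIs of a library (CPM) these were 116, 10.7, 31.7 and 2772. WT replicate 2 held 96.4% of all 9359 Jchain UMIs, and the genotypes overlapped. Within it, cell 17 held 5057 and cell 21 held 3130, together 90.8% of the library's Jchain in cells that held 2.37% of its UMIs. Cell 17 had 52854 UMIs in all and cell 21 had 24103, so neither was among the deepest cells. A cell of Mat KO replicate 1, number 43 with 8904 UMIs in all, held 173 Jchain UMIs, 78.6% of that library's count. Outside these 3 cells the largest count was 128, in cell 1 of WT replicate 2.

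**Figure D1:**
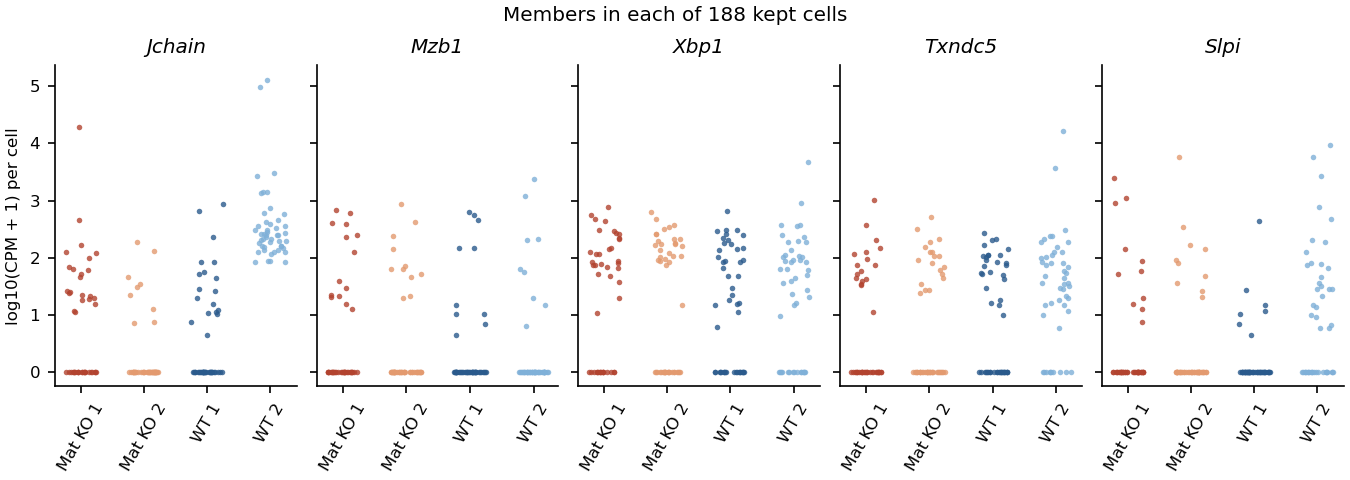
Level of each of the 5 genes in every kept cell, as log10(CPM + 1), by library, where each point is 1 cell and cells without a UMI lie at 0. Jchain is detected in all 48 cells of WT replicate 2, with 2 cells far above the rest, while Xbp1 is spread alike over the 4 libraries.

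Jchain was also present at a low level throughout WT replicate 2. At least 1 UMI was found in 22 of 44, 9 of 48, 18 of 48 and 48 of 48 cells, with libraries in the order above. These are 50% (exact binomial 95% interval 34.6% to 65.4%), 18.8% (8.95% to 32.6%), 37.5% (24.0% to 52.6%) and 100% (92.6% to 100%), and the intervals cover counting error only. The 46 cells of WT replicate 2 other than 17 and 21 held 832 Jchain UMIs, from 2 to 128 per cell with a median of 14.5. Their level ran from 82.2 to 2997 CPM with a median of 238, against medians of 0 in the same cells of the other 3 libraries once cell 43 was set aside. When each cell was thinned to 8877 UMIs, which left out 19 cells, Jchain remained in 40 of 44 cells of WT replicate 2 and in 9 of 38, 4 of 41 and 7 of 46 cells of the others. The library therefore stood apart at equal depth as well.

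The barcode numbers of the leading Jchain cells recurred. Barcode 17 held the most Jchain in Mat KO replicate 2 (9 UMIs), WT replicate 1 (68) and WT replicate 2 (5057), and the second most in Mat KO replicate 1 (16). Barcode 21 ranked second in Mat KO replicate 2 (3 UMIs), WT replicate 1 (12) and WT replicate 2 (3130), and had 0 in Mat KO replicate 1. Both barcodes together held 79.2% of the Jchain of WT replicate 1 and 63.2% of that of Mat KO replicate 2, but 7.27% in Mat KO replicate 1. Mzb1 had 1, 0 and 0 UMIs at barcode 17 of Mat KO replicates 1 and 2 and WT replicate 1, Slpi had 2, 0 and 2, and Txndc5 had 2, 0 and 4. Xbp1 had 27, 0 and 14 at barcode 17, which is also its leading cell in Mat KO replicate 1, and 0, 6 and 0 at barcode 21. Set against WT replicate 2, the Jchain count at barcode 17 was 0.316%, 0.178% and 1.34% in those libraries. What part shared barcodes play in these counts was not tested.

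**Figure D2:**
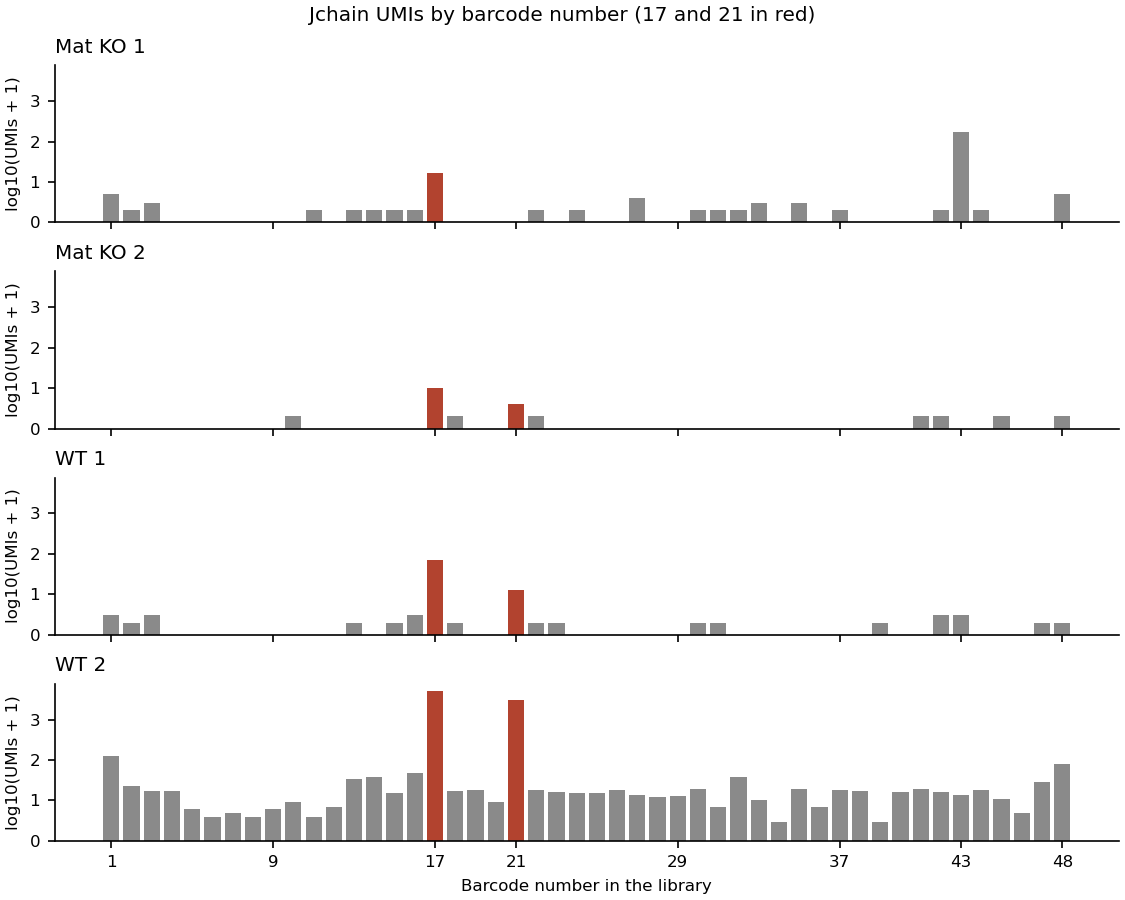
Jchain UMIs, as log10(UMIs + 1), at each barcode number of the 4 libraries, where each bar is 1 kept cell and barcodes 17 and 21 are red. The highest bar stands at barcode 17 in 3 libraries and at barcode 43 in Mat KO replicate 1.

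Barcodes outside the kept cells held Jchain in the libraries where it was abundant. In WT replicate 2 the 48 left-out barcodes had 1164 UMIs, of which 10 were Jchain in 6 barcodes, a level of 8591 CPM. In Mat KO replicate 1 the 52 left-out barcodes had 26 Jchain UMIs, 25 of them in barcode 39, which had 717 detected genes and 4964 UMIs. None was seen in the 769 and 1293 UMIs of the left-out barcodes of Mat KO replicate 2 and WT replicate 1, where a count of 0 allows up to 3 UMIs. The spread of Jchain over the 46 other cells of WT replicate 2 amounted to 10.2% of the count in cells 17 and 21. The same ratio was 0.952% for the plasma cell receptor gene Tnfrsf17 (1 UMI against 105), 8.77% for Eaf2, 13.5% for Derl3, 22.2% for Slpi, 31.1% for Txndc5, 37.6% for Mzb1 and 152% for Xbp1. These ratios include other cells' own transcripts, since 48 of the 59 Mzb1 UMIs outside cells 17 and 21 lay in the B-lymphoid cell 14, and 81 and 9 of the 140 Slpi UMIs in the neutrophil-marked cells 2 and 3. Whether free RNA contributes to the Jchain counts of the other 46 cells was not tested.

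Mzb1, a protein-coding gene on chromosome 18 (35647265 to 35650266, minus strand, GRCm38.p6), was held by few cells. Most cells with at least 5 Mzb1 UMIs carried early B-cell transcripts. Mat KO replicates held 141 and 175 of its UMIs and WT replicates 132 and 216, which makes 74.2, 98.9, 41.5 and 66.4 CPM in that order. Both Mat KO libraries were above both WT libraries, and genotypes did not overlap in 39.1% of the 10663 genes tested. The gene was found in 14 of 44, 11 of 48, 10 of 48 and 9 of 48 cells. Of the 16 cells with at least 5 UMIs, 13 had 0.652% to 1.97% of their UMIs in a list of 16 B-lymphoid genes, against library medians of 0.00587% to 0.0107%. The other 3 were cells 17 and 21 of WT replicate 2 (128 and 29 UMIs) and cell 43 of Mat KO replicate 1 (6). All 14 cells with over 0.5% B-lymphoid UMIs had Mzb1, up to 135 UMIs in cell 41 of Mat KO replicate 2, 97 in cell 19 of Mat KO replicate 1, 48 in cell 14 of WT replicate 2 and 41 in cell 3 of WT replicate 1. The limit of 0.5% was set after the values were seen. Outside those 14 cells and the 3 leading Jchain cells, no cell had more than 3 Mzb1 UMIs.

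The B-lymphoid cells with Mzb1 did not carry the other members to a like degree. Over these 14 cells there were 466 Mzb1 UMIs but 44 of Jchain, 36 of them in a single cell of WT replicate 2, and 4 of Slpi. Jchain was present in 6 of the 14 cells, Xbp1 in 8 and Txndc5 in 8. Their stem cell list share ran from 0.0191% to 0.236% with a median of 0.0548%, below the median of 0.522% over all kept cells. Over the 169 thinned cells the genes whose level was most like that of Mzb1 included Slamf7, a surface receptor of lymphocytes (Spearman rho 0.71), the B-cell adaptor Blnk (0.65), the B-lineage coactivator Pou2af1 (0.64) and the recombinase Rag1 (0.58). Mzb1 was found in 22 of the 169 thinned cells, so these values rest on few cells.

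Xbp1 was found in over 50% of the cells of every library. The Mat KO replicates held 175 and 196 UMIs (92.1 and 111 CPM), the WT replicates held 269 and 411 (84.5 and 126 CPM), and the genotypes overlapped. UMIs were found in 28 of 44, 26 of 48, 29 of 48 and 33 of 48 cells, and the leading cell of a library held 15.4%, 16.8%, 17.8% and 28.2% of its count. In WT replicate 1 Txndc5 was spread more evenly, with 9.01% in its leading cell. The leading Xbp1 cells were number 17 of Mat KO replicate 1 (27 UMIs), number 41 of Mat KO replicate 2 (33), number 2 of WT replicate 1 (48) and number 21 of WT replicate 2 (116). Cell 17 of WT replicate 2 had 47. Without cells 17 and 21 the level in WT replicate 2 was 78.1 CPM, below the other libraries with all their cells kept. Without each library's leading cell, the Mat KO replicates stood at 79.4 and 101 CPM and the WT replicates at 73.0 and 91.3 CPM. WT replicate 1 was then the lowest. Of the 60 cells with at least 5 UMIs, 53 had neither over 0.5% B-lymphoid nor over 5% neutrophil UMIs. The 5 genes most like Xbp1 over thinned cells had rho of 0.28 or less, which in counts this sparse is no finding.

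Txndc5 was low and broad in 3 libraries and concentrated in WT replicate 2. The Mat KO replicates held 75 and 63 UMIs (39.5 and 35.6 CPM) and the WT replicates held 111 and 779 (34.9 and 239 CPM). The first 3 libraries lay close together and WT replicate 2 above them. Cell 21 of WT replicate 2 held 398 UMIs and cell 17 held 196, together 76.3% of its count, and the next cells were numbers 32 (30 UMIs) and 15 (21) of the same library. Without cells 17 and 21 the level of WT replicate 2 was 58.2 CPM. Outside that library the leading cells were number 30 of Mat KO replicate 1 (15 UMIs), number 48 of Mat KO replicate 2 (17) and number 4 of WT replicate 1 (10). Cells with at least 1 UMI numbered 17 of 44 and 19 of 48 in Mat KO against 25 of 48 and 38 of 48 in WT. The genotypes did not overlap in this share, at a lower depth in Mat KO, and how many of all genes do so was not counted. After thinning the genotypes overlapped, at 28.9% and 19.5% against 26.1% and 40.9%.

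**Figure D3:**
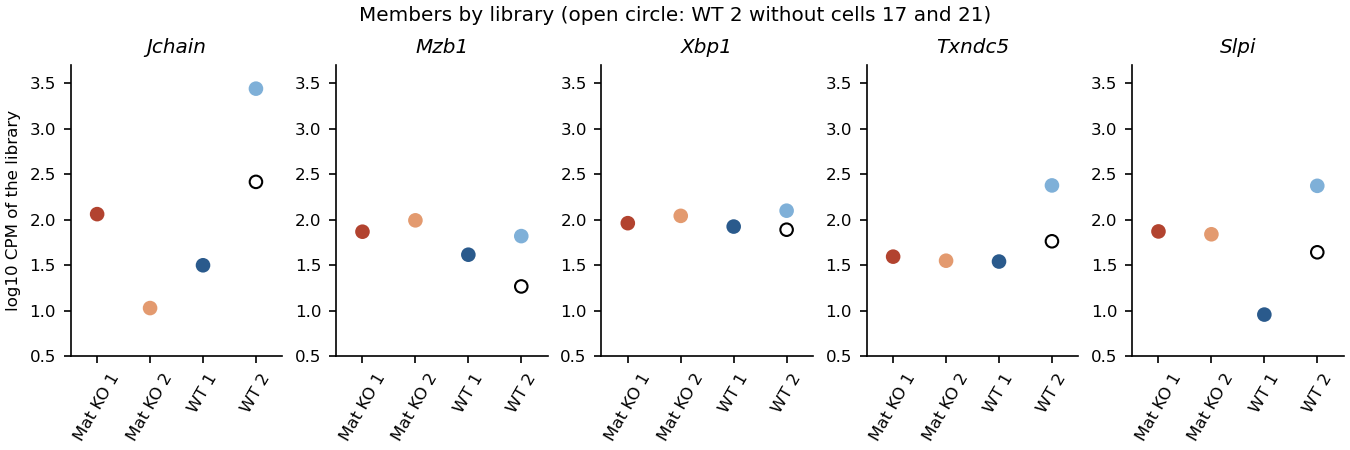
Level of each gene in each library as log10 CPM over kept cells, where a filled point is 1 library and the open circle is WT replicate 2 without cells 17 and 21. Leaving them out takes Jchain from 2772 to 262 CPM, Txndc5 from 239 to 58.2 and Slpi from 237 to 44.1.

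Slpi was held by cells of different kinds. The Mat KO replicates held 142 and 123 UMIs (74.7 and 69.5 CPM) and the WT replicates held 29 and 771 (9.11 and 237 CPM), so that the WT libraries were the lowest and the highest. Cells 17 and 21 of WT replicate 2 held 494 and 137 UMIs, 81.8% of that library. Of the 14 cells with at least 5 UMIs, 6 had 7.85% to 36.1% of their UMIs in a list of 14 neutrophil genes such as Lcn2, Ngp and S100a8. These were cells 14 and 4 of Mat KO replicate 1 (89 and 30 UMIs), 46 of Mat KO replicate 2 (49), 10 of WT replicate 1 (22) and 2 and 3 of WT replicate 2 (81 and 9). Cell 48 of Mat KO replicate 2 had 57 Slpi UMIs, 0.0586% neutrophil and 3.16% monocyte UMIs. Cell 43 of Mat KO replicate 1 had 10 Slpi UMIs and 2.12% neutrophil UMIs. A total of 7 cells had over 5% neutrophil UMIs, a limit set after the values were seen, and Slpi was found in 6 of them.

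The other members were also counted in the 7 neutrophil-marked cells. Jchain was found in 3 of the 7, Txndc5 in 3, Xbp1 in 4 and Mzb1 in 0, which with 7 cells allows a share of up to 42.9%. Their median depth was 30252 UMIs against 42461 over all kept cells, in which Jchain was found in 51.6%, Txndc5 in 52.7%, Xbp1 in 61.7% and Mzb1 in 23.4%. In WT replicate 2 both neutrophil-marked cells had Jchain, with 22 and 16 UMIs, and of the other 5 neutrophil-marked cells 1 had it, with 1 UMI. Whether the Jchain counts outside the 3 leading cells reflect expression in those cells was not tested. Over thinned cells the genes most like Slpi were Cmah (rho 0.49), the transcript 6330407A03Rik (0.39), the monocyte surface gene Ly6c2 (0.38), the neutrophil gene Retnlg (0.37) and the myeloid receptor gene Lilrb4a (0.37). Slpi was found in 23 of the 169 thinned cells.

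**Figure D4:**
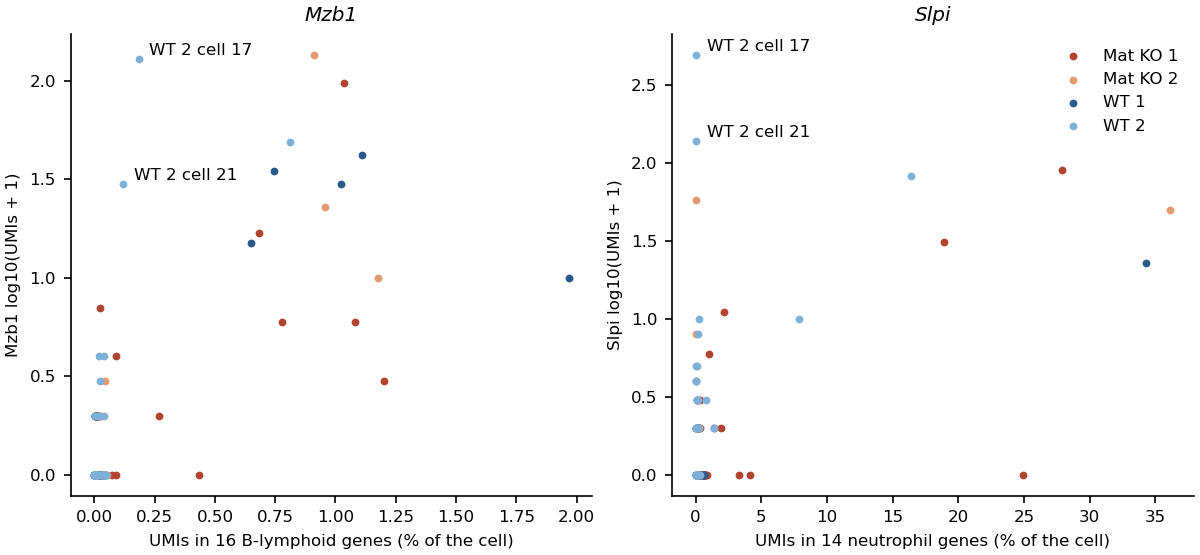
Mzb1 against the share of UMIs in 16 B-lymphoid genes and Slpi against the share in 14 neutrophil genes, with UMIs as log10(UMIs + 1) and each point 1 kept cell. Cells 17 and 21 of WT replicate 2 are high for both members at 0.184% and 0.120% B-lymphoid and under 0.04% neutrophil UMIs, while the other cells with 22 or more Mzb1 UMIs have 0.746% or more B-lymphoid UMIs.

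The label was checked against 21 plasma cell markers other than the members, of which 17 were in the tables. Immunoglobulin heavy and light chain rows were not analysed here. Cell 17 of WT replicate 2 had 15 of the 17 markers and 0.959% of its UMIs in them, cell 21 had 16 and 0.851%, and cell 43 of Mat KO replicate 1 had 9 and 0.359%. These were the highest 3 shares of the 188 cells, where library medians were 0.0569% to 0.0645% with 3.5 to 4.5 markers per cell. The receptor gene Tnfrsf17 (BCMA) had 79 UMIs in cell 17 and 26 in cell 21 of 108 over all cells. Cells 17 and 21 had 7 and 11 UMIs of Sdc1 (CD138), 11 and 5 of the plasma cell regulator Prdm1, 43 and 14 of Eaf2, 61 and 11 of Pou2af1 and 32 and 5 of the ER degradation gene Derl3. Over all cells these genes had 66, 200, 71, 428 and 55 UMIs. Sdc1 had 36 UMIs in 4 other cells of WT replicate 2. Prdm1 was found in 28 cells, with 37 UMIs in cell 48 of Mat KO replicate 2. Sdc1, Prdm1 and Pou2af1 were thus not confined to cells 17 and 21. The transcription factor gene Irf4 had 0 and 2. Cell 43 had 2 UMIs of Sdc1, 1 of Prdm1, 5 of Irf4, 4 of Eaf2, 5 of Pou2af1 and 0 of Tnfrsf17. Irf4 stood at 26.0 CPM in cells 17 and 21 together. The other 46 cells of WT replicate 2 had 3.46 CPM and the remaining libraries 41.9 CPM. Creld2 had 3 UMIs in cell 17 and Ell2 had 1 in cell 21, which is low for their depth. Most of the markers, though not Cd38, Cd27, Irf4 and these 2 counts, thus go with the plasma-cell-like label in cells 17 and 21. In cell 43 most rest on 5 UMIs or fewer.

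Markers of related cells were mixed in these cells. The B-lymphoid list held 0.184% and 0.120% of UMIs in cells 17 and 21, ranks 17 and 18 of 188, against a median of 0.00875% in WT replicate 2. Within it Vpreb1, Ebf1, Rag1 and Dntt, which mark B-cell precursors, were at 0 UMIs in cells 17 and 21, where a count of 0 allows up to 3. The precursor genes Vpreb3 and Igll1 had 3 and 1 UMIs in cell 17 and 2 and 1 in cell 21. Cd79a had 28 and 6 UMIs, Cd79b 11 and 12, and the mature B-cell gene Ms4a1 39 and 0, of 43 over all cells. The plasmacytoid dendritic cell markers Siglech, Klk1 and Cd300c were at 0 in every kept cell. The list they belong to held 0.227% and 0.216% of UMIs in cells 17 and 21, ranks 2 and 3 of 188, through Tcf4 (49 and 17 UMIs), Ly6d (44 and 15) and Bst2 (9 and 18). The list of 8 monocyte genes held 0.554% and 0.0747%, ranks 9 and 49. Its UMIs came mostly from Ly6c2 (280 and 9 UMIs) and Ctss (13 and 8), while Ccr2, Csf1r, F13a1 and Mpeg1 were at 0 in both. Cell 43 also had 2.12% neutrophil UMIs, rank 10 of 188, and what those transcripts contribute to its profile was not tested.

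Stem cell markers made up a smaller share of UMIs in the leading Jchain cells than in the median cell of their libraries. A list of 30 long-term HSC genes held 0.409% of UMIs in cell 17, 0.365% in cell 21 and 0.135% in cell 43, ranks 121, 130 and 159 of 188, against library medians of 0.489%, 0.517%, 0.576% and 0.448%. Of the 30 genes 16, 8 and 9 were detected in cells 17, 21 and 43, against library medians of 13.5, 15, 17 and 16, so that cell 17 had as many as the median cell of WT replicate 2. In cell 17, 173 of its 216 list UMIs came from Ly6a (Sca-1) and Txnip, and in cell 21, 81 of 88 did. Without these 2 genes, left out after their values were seen, the share was 0.0814% and 0.0290% against a median of 0.406% in WT replicate 2, and 27 and 9 of the 188 cells were lower. Procr, Hoxb5, Fgd5 and Hoxa9 were at 0 in all 3 cells. The receptor gene Kit had 0, 1 and 1 UMIs, Hlf 4, 1 and 1, and Mecom 2, 0 and 0. Ly6a, which is also a gene of lymphocytes, had 56 and 59 UMIs in cells 17 and 21 and 0 in cell 43.

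**Figure D5:**
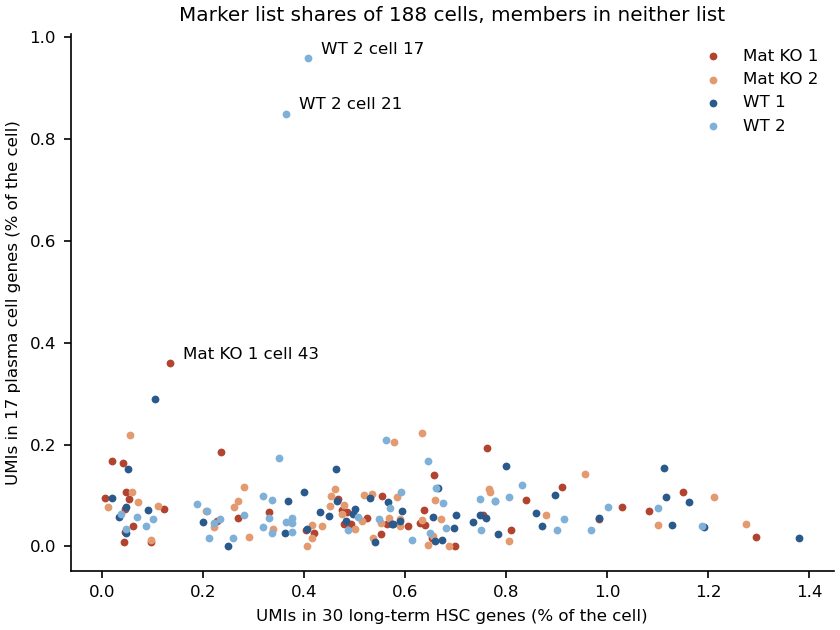
Share of each cell's UMIs in 17 plasma cell genes against the share in 30 long-term HSC genes, where each point is 1 of the 188 kept cells and members are in neither list. Cells 17 and 21 of WT replicate 2 stand at 0.959% and 0.851% plasma cell UMIs, and cell 43 of Mat KO replicate 1 at 0.359%.

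Lists of secretory machinery genes held high shares of UMIs in the same cells, though not every gene in them was high. Of 26 genes of the unfolded protein response, the pathway of Xbp1, cells 17, 21 and 43 had the highest 3 shares of the 188 cells at 1.41%, 1.02% and 0.955%, where library medians were 0.315% to 0.356%. The chaperone gene Hsp90b1 (Grp94), the partner of Mzb1, had 267, 64 and 22 UMIs, Herpud1 132, 10 and 9, Hspa5 (BiP) 87, 19 and 6, and Edem1 32, 41 and 1. For their depth, cells 21 and 43 had less Hspa5 than their libraries, which stood at 951 and 917 CPM. The ER translocon and signal peptidase list held 1.56% and 1.57% in cells 17 and 21, the highest 2 shares, against library medians of 0.327% to 0.409%. Its members Ssr4, Sec61g, Spcs1 and Sec11c had 171, 170, 138 and 131 UMIs in cell 17. In cell 43 that list held 0.427%, rank 45. The list of protein disulfide isomerases and oxidases, the family of Txndc5, held 0.350%, 0.303% and 0.348%, ranks 1, 3 and 2, with Pdia4 at 32, 19 and 7 UMIs. Other genes of these lists were low for the cells' depth. Canx had 9 and 3 UMIs in cells 17 and 21, and P4hb had 5 and 2. In cell 17 Atf4 had 3 UMIs and Sec62 had 1. The levels of these 4 genes in WT replicate 2 were 481, 245, 328 and 554 CPM. Derl3, Creld2, Prdx4 and Sec11c stand both in the plasma cell list and in one of these lists.

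The balance of the members differed between cells 17 and 21. Jchain made up 85.4% of the 5922 member UMIs of cell 17 and 82.2% of the 3810 of cell 21, and 85.2% of the 203 of cell 43. Slpi followed in cell 17 with 8.34% and Txndc5 in cell 21 with 10.4%. Xbp1 was 0.794% in cell 17 and 3.04% in cell 21. In the other 46 cells of WT replicate 2 Jchain was 56.8% of 1464 member UMIs, while in Mat KO replicate 1 without cell 43, Mat KO replicate 2 and WT replicate 1 it was 8.55%, 3.30% and 15.7%. In those 3 sets Xbp1 was the largest part, at 30.9%, 34.0% and 41.9%.

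Before thinning, joint presence of the members was most frequent in WT replicate 2. All 5 were found in 12 cells (4, 1, 1 and 6 in the order Mat KO replicates 1 and 2, WT replicates 1 and 2) and none in 23 (4, 9, 10 and 0). At least 3 were present in 74 of 188 cells, with 14, 9, 15 and 36 by library. With at least 5 UMIs required of each gene the number was 12, of which 3 cells had all 5, namely cells 17, 21 and 43. After thinning the number was 20 of 169 cells, with 7 of 38, 3 of 41, 2 of 46 and 8 of 44 by library. Mat KO replicate 1 was then level with WT replicate 2, at 18.4% and 18.2%. Jchain and Txndc5 were found together in 65 cells, 67.0% of the 97 with Jchain and 65.7% of the 99 with Txndc5. Jchain and Mzb1 shared 24 cells, 24.7% of those with Jchain and 54.5% of the 44 with Mzb1.

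Across thinned cells the coefficients between the members' log levels were smaller without the leading cells. The Pearson coefficient of Jchain with Slpi was 0.61, with Txndc5 0.59, with Mzb1 0.46 and with Xbp1 0.33 over 169 cells, which share libraries and depth. Without cells 17 and 21 of WT replicate 2 these were 0.34, 0.24, 0.14 and 0.11 over 167 cells. Without barcodes 17 and 21 of every library and cell 43 of Mat KO replicate 1 they were 0.25, 0.09, -0.02 and -0.01 over 160 cells. Spearman coefficients between Jchain and the others were 0.24 or less from the start. Jchain with Slpi kept the highest of the 4 coefficients in each of these sets, and in counts this sparse weak coefficients are no finding. The genes most like Jchain were Hspa1a (rho 0.39) and Rps19 (0.30), those most like Xbp1 were Fam210b (0.28) and Ppp1r35 (0.27), and those most like Txndc5 were Rgs10 (0.30) and Ibtk (0.29), and none of these 6 was in the plasma cell list.

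Stem cell share was compared between cells with and without each member inside each library. For Slpi the median share in cells with the gene was 0.269%, 0.492%, 0.406% and 0.371%, in the same order of libraries, against 0.552%, 0.517%, 0.593% and 0.566% in cells without it. It was lower in 4 of 4 libraries, with a mean difference of -0.17 percentage points (SD 0.11, n = 4, exact two-sided sign-flip permutation p = 0.13, the smallest 4 libraries can give). In thinned cells, where WT replicate 1 had too few cells with Slpi, it was lower in 2 of 3 libraries and higher by 0.13 in WT replicate 2 (mean -0.08, SD 0.24, n = 3, exact permutation p = 0.75). For Xbp1 it was lower in 4 of 4 libraries (mean -0.09, SD 0.13, n = 4, exact permutation p = 0.13), but after thinning it was higher in 3 of 4 (mean 0.04). For Mzb1 it was lower in 3 of 4 (mean -0.14, SD 0.20, n = 4, exact permutation p = 0.25), and in cells with at least 5 Mzb1 UMIs it was lower in 4 of 4 (mean -0.41). For Txndc5 the mean difference was near 0 (SD 0.12, n = 4, exact permutation p = 1). Jchain allowed 3 libraries, since every cell of WT replicate 2 had it, with a mean of -0.05 (SD 0.17, n = 3, exact permutation p = 0.75). Adjusted over these 5 comparisons by Benjamini-Hochberg, the exact permutation values ran from 0.31 to 1. With 3 or 4 libraries none of the differences could have passed at 0.05, so these tests cannot decide whether the shares differ.

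The genotypes were then compared over the summed UMIs of the 4 libraries, with log2 fold changes as Mat KO minus WT. Because the genes were chosen with values of these libraries known, this comparison describes them and supports nothing further. With edgeR's quasi-likelihood test and Benjamini-Hochberg adjustment, 0 of the 5 members passed, where 0.0750% of the 10663 genes tested did. Jchain had a log2 fold change of -4.45 (SE 1.44, adjusted p = 0.499), Txndc5 -1.84 (SE 0.69, adjusted p = 0.572) and Slpi -0.74 (SE 0.91, adjusted p = 0.900). Mzb1 had 0.71 (SE 0.43, adjusted p = 0.729) and Xbp1 -0.02 (SE 0.36, adjusted p = 0.993). Jchain and Txndc5 had unadjusted p of 0.0102 and 0.0212, as 834 genes had an unadjusted p under 0.05. DESeq2 called 109 genes and none of the members.

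The directions of Jchain, Txndc5, Slpi and Xbp1 rested on WT replicate 2, and those of Slpi and Xbp1 also on its cells 17 and 21. Without that library the fold changes of Jchain, Txndc5, Slpi and Xbp1 turned to 1.00, 0.13, 3.0 and 0.29 and Mzb1 was 1.09, with adjusted p from 0.117 for Slpi to 1.000 by edgeR. Without only cells 17 and 21 of WT replicate 2 Jchain was -1.19, Txndc5 -0.28, Slpi 1.47, Xbp1 0.35 and Mzb1 1.56, and none passed. Without barcodes 17 and 21 of every library and cell 43 of Mat KO replicate 1, Jchain was -3.64 and did not pass. Mzb1 turned to -0.63 in thinned cells and to -0.25 without its leading cell in each library. Jchain did pass edgeR's test without Mat KO replicate 1 (-6.98, adjusted p = 0.0127), without WT replicate 1 (-5.44, adjusted p = 0.000107), with no gene filter and in a fit with the replicate number as a block (-2.78, adjusted p = 0.000374). Txndc5 passed without WT replicate 1 (-2.65, adjusted p = 0.00616) and with no gene filter. Each of these fits kept cells 17 and 21.

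Shares of cells with a member gave no test result below the smallest p that 2 libraries against 2 allow. Mat KO means minus WT means were -34.4 percentage points for Jchain (exact two-sided permutation p = 0.667), 7.58 for Mzb1 (p = 0.33, the smallest, exact permutation), -5.68 for Xbp1 (exact permutation p = 0.667), -26.5 for Txndc5 (exact permutation p = 0.33) and -11.5 for Slpi (exact permutation p = 1). Adjusted over the 5 comparisons by Benjamini-Hochberg, the values ran from 0.833 to 1. The lower depth of the Mat KO libraries moves with these shares, and its part in them was not tested beyond thinning. After thinning the difference was 7.79 points for Xbp1, -9.27 for Txndc5, -36.3 for Jchain, 6.59 for Mzb1 and -1.95 for Slpi.

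The pathways around the members showed no call by genotype. Of 24 tested genes of the unfolded protein response 16 were higher and 8 lower in Mat KO, with a median log2 fold change of 0.19 beside -0.01 over all genes, and 0 passed edgeR's test. Its most abundant gene, Hspa5, stood at 0.17 (SE 0.21) and Hsp90b1 at 0.06 (SE 0.28). Of 22 translocon and signal peptidase genes 8 were higher and 14 lower (median -0.25, 0 passed), with Sec62 at 0.13 and Sec61g at -0.42. Of 20 disulfide isomerases and oxidases 9 were higher and 11 lower (median -0.03, 0 passed), with Pdia3 at 0.13 and P4hb at -0.49. The 13 tested plasma cell markers had 6 higher and 7 lower (median -0.08, 0 passed), and without cells 17 and 21 their median was 0.29. The 12 tested neutrophil genes had 10 higher and 2 lower (median 2.39, 0 passed). Mat KO replicate 1 was far above the rest, with Camp at 4476, 27.1, 623 and 84.5 CPM and Lcn2 at 2782, 75.2, 374 and 46.4 CPM, and Mat KO replicate 2 was below WT replicate 1 for both. Summed counts alone cannot tell the number of cells of a type from RNA per cell. By cell, 3, 1, 1 and 2 cells had over 5% neutrophil UMIs, in the order Mat KO replicates 1 and 2, WT replicates 1 and 2. Cell 14 of Mat KO replicate 1 alone held 3283 of the 10812 Camp and 3176 of the 6762 Lcn2 UMIs of all kept cells.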

How the data were processed

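Single-cell UMI tables were analysed for 4 libraries of sorted mouse HSC. The deposited values are whole-number UMI counts for each gene in each of 96 barcodes per library, not normalized. TopHat2 2.0.12, HTSeq and mm10 are named in the submitters' processing notes, with no step assigned to any of them. The kit, as the labels' protocols describe it, tags the poly(A) end, so a count does not scale with transcript length. The collapsing of UMIs and the counting of multi-mapping reads are not given in the sources used here.

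The 188 barcodes with 1000 or more detected genes were kept, 95 spike-in and marker rows were set apart, and CPM is UMIs per 1000000 gene UMIs of the kept cells. Summed counts were tested with edgeR 4.0.16 (R 4.3.3; TMM, filterByExpr, quasi-likelihood, genotype only, Benjamini-Hochberg at 0.05). DESeq2 1.42.0 was an alternative. A standard error is the fold change over the square root of its F statistic. The edgeR script was tested on simulated data, 10663 genes of which 200 changed 8-fold: it called 157 of these and 5 others. Every simulated gene had the same dispersion and only more abundant genes were changed. The simulation therefore cannot show the power for genes whose counts lie in few cells. Shares were tested by exact permutation over libraries (scipy 1.17.1). Thinned cells hold 8877 UMIs each, the 10th percentile of kept cells, from 169 cells. No doublet caller was run, since cells were picked singly. Exact binomial intervals cover counting error only.

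The members, lists and tests were chosen with earlier results of these data known. Named beside the members were the leading genes of each list by UMIs, list genes past the edgeR test, the 5 genes most like each member by Spearman rho, and the leading cells of each library. Some genes that this rule or the lists include are not reported here. Individual list genes shown for cells 17, 21 and 43 were picked after their values were seen. The titles share replicate numbers without saying that they pair libraries. Over genes, deviations of same-numbered libraries correlated at -0.02, which cannot show whether those libraries were prepared together.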

Additional observations from a re-analysis of the deposited data

Results flagged for a closer look

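Transcripts of these genes also appeared in barcodes that were not kept as cells, which no comparison above uses. Jchain had 26 UMIs in such barcodes of Mat KO replicate 1 and 10 in those of WT replicate 2, and Txndc5 had 4 in those of WT replicate 2, each above the 3 counts that a count of 0 allows. In WT replicate 2 the 4 Txndc5 UMIs lay in 2 barcodes, 3 of them in barcode 71, which also had 4 of the 10 Jchain UMIs among 27 UMIs in all. In Mat KO replicate 1 barcode 39 held 25 of the 26 Jchain UMIs, 2 of Txndc5, and UMIs of 4 plasma cell markers. Whether barcode 39 held a cell of low quality was not tested.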

How the results depend on the processing

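Over all alternatives 136 of 180 values were rated unchanged, and 23 changed direction. For fold changes unchanged means the same direction and side of the threshold. For differences in shares it means the same direction, and for counts an equal or similar number. Genes called numbered 8, against 109 by DESeq2, 149 with no gene filter, 109 with the replicate block, 3 in thinned cells, 5 in cells with at least 2000 genes and 17 to 123 when 1 library was left out. Members called numbered 0, against 2 with no gene filter, 1 with the replicate block and 0 to 2 when 1 library was left out, always Jchain or Txndc5. Every call was made with cells 17 and 21 of WT replicate 2 kept. In the replicate block, which treats equal numbers as paired, Slpi turned to a log2 fold change of 0.52, and no member other than Jchain passed. Mzb1 turned to -0.63 in thinned cells and to -0.25 without each member's leading cell, where Xbp1 turned to 0.12. Xbp1 also turned to 0.11 without Mat KO replicate 1. Chosen after seeing the data, leaving out cells 17 and 21 of WT replicate 2 turned Xbp1 to 0.35 and Slpi to 1.47, and leaving out barcodes 17, 21 and 43 turned them to 0.28 and 1.47. With 1 library left out, Jchain ran from -6.98 to 1.00, Xbp1 from -0.29 to 0.29, Txndc5 from -2.65 to 0.13 and Slpi from -1.70 to 3.0, the last value of each being that without WT replicate 2. These fits assume that the lone library of a genotype varies like the others.

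The share of cells with Xbp1 turned to 7.79 percentage points in thinned cells, and that with Slpi to 0.379 at 5 or more UMIs and ran from -31.25 to 8.33 with 1 library left out, turning without WT replicate 2. The stem cell list share in cells with the gene minus cells without turned to 0.0366 for Jchain, 0.0352 for Xbp1 and 0.0451 for Txndc5 in thinned cells. With 1 library left out it ran from -0.133 to 0.0377 for Jchain, turning without Mat KO replicate 2, and from -0.0423 to 0.0540 for Txndc5. For Txndc5 it turned to 0.0540 without WT replicate 2, to 0.00971 without its cells 17 and 21, and to 0.00311 without barcodes 17, 21 and 43. At 5 or more UMIs Jchain left 1 library with enough cells on both sides, so that this difference has no value there. Cells with at least 3 members numbered 74, against 12 at 5 or more UMIs and 20 of the thinned cells. The cause of these changes was not tested. Depth limits what shares of cells with 1 UMI can show, and 2 libraries per genotype limit every comparison of genotypes.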

Other observations

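The other marker lists describe what else was in the sorted cells, by genotype and over the tested genes of each list. The B-lymphoid list, which Mzb1 follows, had 10 of 13 genes higher in Mat KO (median log2 fold change 0.35) and none past edgeR's test. The monocyte and macrophage list had 7 of 7 higher (median 3.59), with Ly6c2 (2.53, SE 0.26) and Mpeg1 (5.23, SE 0.63) past the test. Cell 48 of Mat KO replicate 2 alone held 198 of the 353 Mpeg1 and 934 of the 2712 Ly6c2 UMIs of all kept cells. Cell 14 of Mat KO replicate 1 held 430 Ly6c2 UMIs and cell 17 of WT replicate 2 held 280. Whether these calls hold without such cells was not tested. T and NK markers were higher in 3 of 3 genes (median 3.02), with Ccl5 (5.65, SE 0.80) past it. The plasmacytoid dendritic cell list had 5 of 8 higher (median 0.33), the mast cell and basophil list 1 of 2 (median 0.06), the megakaryocyte list 1 of 5 (median -0.86) and the erythroid list 0 of 4 (median -1.72), with none past the test. The long-term HSC list had 7 of 30 higher and 23 lower (median -0.24), and the list of WAP domain and neutrophil protease genes around Slpi 3 of 7 higher (median -0.24), again with none past the test. Its most abundant gene, Wfdc21, stood at 2.34 (SE 1.15) and Prtn3 at -0.73 (SE 0.33).

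The plasma cell receptor gene Tnfrsf17 was the most confined of the list, with 105 of its 106 UMIs in WT replicate 2 in cells 17 and 21 and 2 UMIs in the other 3 libraries. The B-cell gene Ms4a1 had 39 of its 43 UMIs in cell 17 alone and 0 in cell 21. Jchain UMIs in WT replicate 2 were higher in deeper cells, with a Spearman rho of 0.66 over the 46 cells other than 17 and 21, against 0.16 to 0.34 in the other libraries. This is a description over cells of 1 library each.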
